A study of Mus musculus with 16 samples.

Results

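The 54 genes described here act in the G2 phase of the cell cycle and in mitosis. They encode mitotic kinases and their regulators, the spindle checkpoint, kinetochores, spindle motors and microtubule proteins, condensin and other chromosome proteins, the nuclear envelope and the machinery of cytokinesis. The list was given by gene symbol and sets no threshold on a value of these libraries. It was chosen with earlier results of these data known, so the counts below describe the members and are no independent test. All 54 symbols matched 1 of the 32989 gene identifiers of the count table, all 54 were among the 19049 genes tested, and the lowest count of any member in any library was 22 (Bub1).

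Organoids of hair follicle stem cells (HFSCs) from 4 C57BL/6J mice were grown for 2 weeks in a 3D culture that holds HFSCs and their progeny side by side. For 72 h they received either nothing or N1-acetylspermidine (N1-AcSpd), a polyamine that carries an acetyl group. Cells bearing integrin α6 were then sorted by CD34, those without it (α6+/CD34-) as progenitors and those with it (α6+/CD34+) as HFSCs. Each mouse gave 1 library to each of the 4 groups (untreated CD34-, untreated CD34+, N1-AcSpd CD34- and N1-AcSpd CD34+), 16 in all. All cells share strain, sort for integrin α6 and, apart from the added N1-AcSpd, culture medium, and neither gate selected for the cell cycle. Sample titles mark the untreated libraries as WT and the treated ones as N1AcSpd. Transcripts were read at their 3′ ends and tagged with molecular barcodes (UMIs), so that a count stands for 1 molecule near the end of a transcript.

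A cell that leaves S phase with copied DNA builds up cyclin B with the kinase Cdk1, and their joint activity drives it into mitosis. Condensin and topoisomerase then compact the chromosomes, motor proteins and microtubules form the spindle, kinetochores tie the chromosomes to it, and the checkpoint holds back the anaphase-promoting complex until every chromosome is attached. Most of these genes are transcribed late in the cycle, under MuvB complexes that hold B-Myb and FoxM1, and are broken down or shut off as cells divide. In the hair follicle the bulge stem cells are known for long rest between short bursts of division, whereas cells in organoid culture keep dividing.

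The promoters of many of these genes share a pair of short motifs, printed here because they are a feature that the choice of members did not use. The cell cycle homology region (CHR, searched as TTTGAA) is bound by MuvB complexes, and the CCAAT box (searched as CCAAT) by the factor NF-Y. Both strands were searched in the RefSeq windows of build GRCm38.p6, which run from 250 bases before to 50 bases after a start site. Windows were given for 47 of the 54 members, and those of Cdc25c, Cdca2, Tpx2, Pimreg, Dlgap5, Aurkb and Smc4 were not used here. A CHR was found in 33 of the 47 (70.2%), in 36 of 76 other mitosis genes with a window (47.4%), in 15.2% of the 10956 tested genes with a window and in 20.2% of all 27025 genes of the promoter table. A CCAAT box was found in 36 of 47 members (76.6%) and in 48 of the 76 other mitosis genes (63.2%). Tested genes held one in 42.7% and all genes in 41.1%. Both motifs were present in 26 of 47 members (55.3%) and 27 of the 76 (35.5%), against 6.35% of tested genes and 7.97% of all genes. An E2F core (TTTCCCGC or TTTGGCGC) was found in 2 of 47 members (4.26%), near the 3.29% of tested genes, and in 9 of the 76 (11.8%). The last letter of CCAAT can serve as the first of TTTGAA, so matches can overlap at their ends, and a match is a string of letters, not a shown binding site.

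The windows below run from 250 bases before the start site to 30 bases after it, 5′ to 3′ on the gene's own strand, with CHR and CCAAT matches on either strand in capitals. Cdk1 (chr10:69352883-69353162, minus strand), Ccnb2 (chr9:70421525-70421804, minus) and Top2a (chr11:99024160-99024439, minus) show both motifs, Cks2 (chr13:51644982-51645261, plus) only CCAAT boxes, Rangap1 (chr15:81729890-81730169, minus) only a CHR, and Nusap1 (chr2:119618048-119618327, plus) neither.
Cdk1: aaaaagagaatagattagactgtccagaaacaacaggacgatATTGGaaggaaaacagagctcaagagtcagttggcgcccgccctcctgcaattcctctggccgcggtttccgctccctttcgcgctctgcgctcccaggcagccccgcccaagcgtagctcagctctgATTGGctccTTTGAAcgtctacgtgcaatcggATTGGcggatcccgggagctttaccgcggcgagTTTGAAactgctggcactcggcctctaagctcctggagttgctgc
Ccnb2: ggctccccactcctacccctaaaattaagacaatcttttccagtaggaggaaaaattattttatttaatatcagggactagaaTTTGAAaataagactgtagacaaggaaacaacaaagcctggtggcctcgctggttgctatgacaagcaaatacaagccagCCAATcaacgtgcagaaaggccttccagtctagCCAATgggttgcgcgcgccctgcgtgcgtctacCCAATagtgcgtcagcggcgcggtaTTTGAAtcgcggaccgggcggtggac
Top2a: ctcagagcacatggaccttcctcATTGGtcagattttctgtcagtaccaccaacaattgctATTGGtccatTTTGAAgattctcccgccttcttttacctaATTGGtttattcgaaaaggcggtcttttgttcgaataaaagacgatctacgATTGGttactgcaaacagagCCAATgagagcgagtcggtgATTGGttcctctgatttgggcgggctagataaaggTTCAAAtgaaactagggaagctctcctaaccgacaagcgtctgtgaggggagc
Cks2: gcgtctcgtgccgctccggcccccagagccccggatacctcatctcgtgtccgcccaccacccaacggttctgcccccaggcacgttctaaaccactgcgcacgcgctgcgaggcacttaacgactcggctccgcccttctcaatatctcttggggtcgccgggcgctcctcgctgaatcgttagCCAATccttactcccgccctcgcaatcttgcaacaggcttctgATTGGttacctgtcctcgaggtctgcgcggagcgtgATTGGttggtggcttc
Rangap1: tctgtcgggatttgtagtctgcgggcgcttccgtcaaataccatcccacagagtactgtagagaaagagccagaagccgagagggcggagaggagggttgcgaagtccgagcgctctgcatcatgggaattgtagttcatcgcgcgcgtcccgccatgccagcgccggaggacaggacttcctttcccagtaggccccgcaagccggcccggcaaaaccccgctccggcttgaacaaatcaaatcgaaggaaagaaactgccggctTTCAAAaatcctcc
Nusap1: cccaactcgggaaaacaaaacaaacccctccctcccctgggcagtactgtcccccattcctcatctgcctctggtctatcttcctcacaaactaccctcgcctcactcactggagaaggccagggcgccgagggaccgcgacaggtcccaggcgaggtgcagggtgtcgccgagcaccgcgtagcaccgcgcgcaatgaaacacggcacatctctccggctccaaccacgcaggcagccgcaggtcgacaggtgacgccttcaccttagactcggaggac
Among the 36 members higher in CD34+ cells in both conditions, given below, 22 of 30 with a window held a CHR (73.3%), and among the other members 11 of 17 (64.7%). A CCAAT box was held by 21 of the same 30 (70.0%) and by 15 of the other 17 (88.2%). Some members with a window had 1 of the 4 largest differences between cell types in either condition. Of these, Nusap1 held neither motif, Ndc80 only a CHR, and Hmgb2 and Ncapd2 both. Of the 5 members called in neither condition, Rangap1, Tubb4b, Ctcf and Tmpo held a CHR and Jpt1 only CCAAT boxes. A link between motifs and these differences was not tested.

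Library totals ran from 15480075 to 29074855 UMIs, and the members held between 0.198% and 0.383% of them. Within a mouse and condition the CD34- library was the deeper one except for mouse 2 untreated and mouse 1 treated. Thinning all libraries to the smallest left 35 called members in untreated cells and 46 under N1-AcSpd, near the counts given below. Of the 18212 genes tested after thinning, 5503 and 5692 were called. The basal keratinocyte markers Krt5, Krt14, Krt15, Itga6, Itgb4 and Trp63 summed to between 6058 and 7057 CPM (counts scaled to a common library size, with TMM factors) in all 16 libraries. Krt14 held most of this sum, and group means of Krt14, Krt5 and Itga6 were lower in CD34+ cells. Krt15 averaged 38.6 CPM in untreated CD34- and 393 CPM in untreated CD34+ cells, and 30.3 and 300.4 CPM under N1-AcSpd. Trp63 was higher in CD34+ cells as well, and Itgb4 was nearly equal. The 8 markers of differentiated keratinocytes summed to 1017 to 1379 CPM in untreated CD34- and 283.5 to 306.8 CPM in untreated CD34+ libraries, and to 1231 to 1556 and 296.4 to 387.4 CPM under N1-AcSpd, so they moved against the members between cell types. Krtdap and Sbsn made up most of that sum, and Flg2 was at or near 0. Their part in the results was not tested. Fibroblast markers summed to at most 1.52 CPM and immune markers to at most 2.09 CPM in any library. Of the melanocyte markers, Mitf and Pmel held nearly all of the 28.02 to 36.1 CPM, with Mlana, Dct, Tyr and Tyrp1 each at a group mean of 0.556 CPM or less.

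The first comparison asked how HFSCs and progenitors differ without supplementation. Mitosis genes were higher in the α6+/CD34+ HFSCs. edgeR called 37 of the 54 members higher (Benjamini-Hochberg adjusted p under 0.05 over all tested genes) against a background of 16.1% of tested genes called higher, and 1 member, Cdc25c, lower, against 16.1% called lower and 32.1% called in either direction. The median log2 fold change over the members was 0.51, or 1.42-fold, and 0.022 over all tested genes. In 33 members all 4 CD34+ libraries lay above all 4 CD34- libraries, which 15.9% of tested genes did. A library holds RNA of many cells, so more cells in mitosis and more of these RNAs per cell cannot be told apart here.

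**Figure D1:**
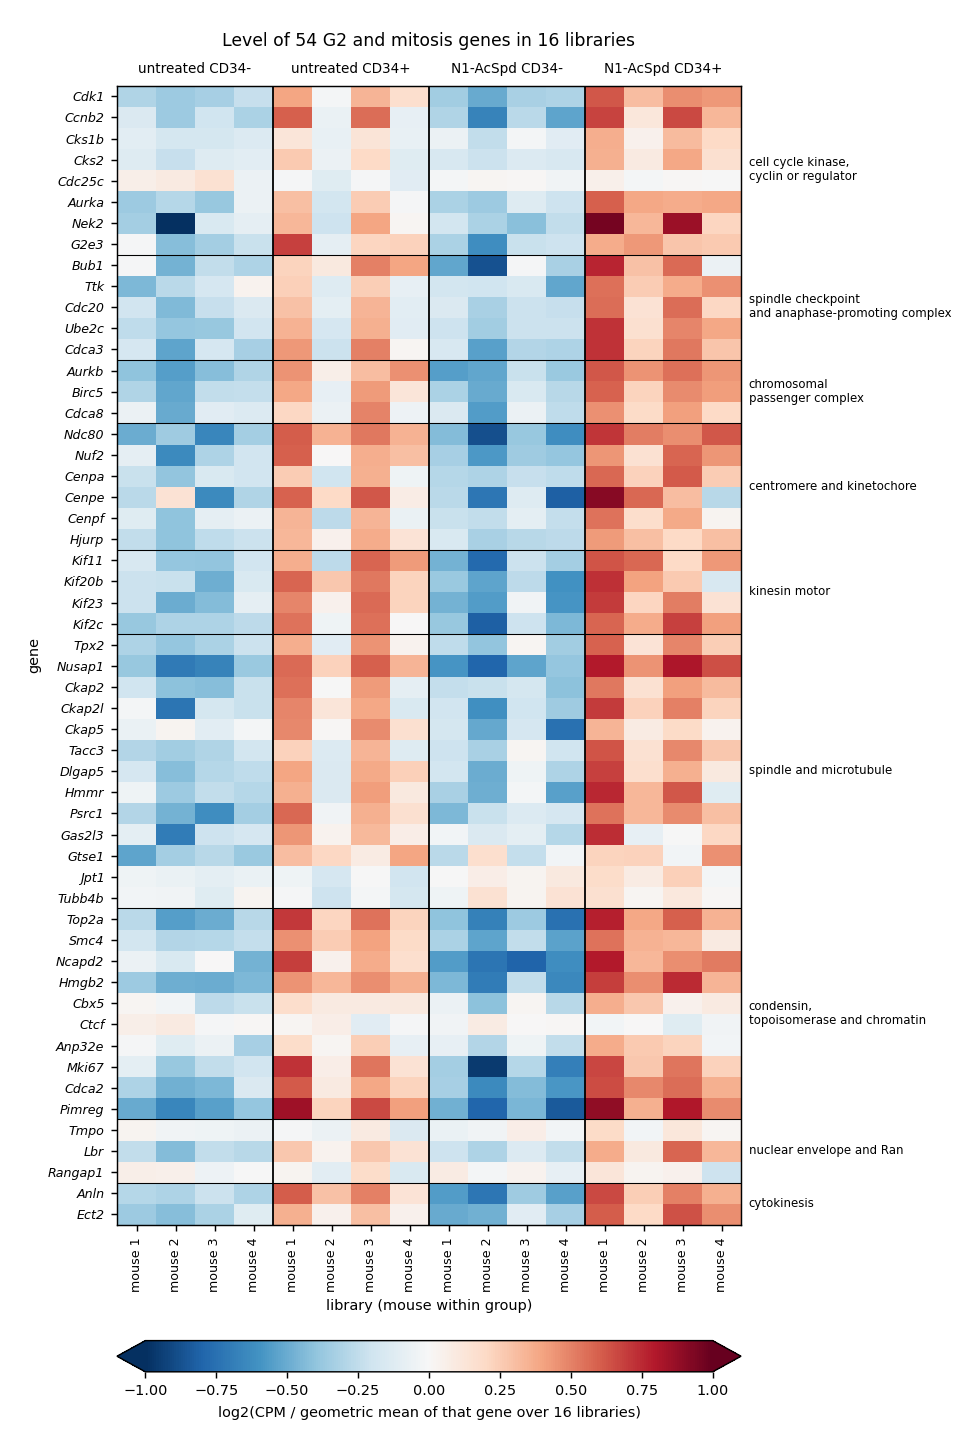
Each row is 1 of the 54 members, grouped by role, and each column 1 of the 16 libraries, ordered by group and mouse. Colour gives log2 of the CPM over that gene's geometric mean in all libraries, saturated at ±1. CD34- columns are mostly blue and CD34+ columns mostly red, with mice 1 and 3 the deepest red among untreated CD34+ libraries, and the rows of Cdc25c, Jpt1, Tubb4b, Ctcf, Tmpo and Rangap1 are pale.

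Among the kinases, cyclins and regulators, 4 of 8 rose, 1 fell and 3 did not pass the test in untreated cells. Cdk1, the kinase that triggers mitosis, stood at 31.5, 30.1, 30.8 and 33.0 CPM in untreated CD34- libraries of mice 1 to 4 and at 51.1, 38.2, 49.1 and 43.5 CPM in untreated CD34+ libraries. The groups did not overlap, and mice 1 and 3 were the high CD34+ libraries. The log2 fold change was 0.54 (SE 0.09, adjusted p = 0.000312, edgeR). Ccnb2, a B-type cyclin that activates Cdk1, was at 27.1, 23.4, 26.3 and 24.1 CPM in CD34- and 45.5, 28.8, 44.4 and 28.4 CPM in CD34+ cells. Its CD34+ libraries fell into a high pair, mice 1 and 3, and a low pair, mice 2 and 4, that still lay above all CD34- libraries. It rose by 0.54 on the log2 scale (SE 0.17, adjusted p = 0.0257), a call that was lost without mouse 1 (0.46), mouse 3 (0.46) or mouse 4 (0.63), or without any 1 of 4 single untreated libraries, and in a fit of the compared groups alone.

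Aurka, the kinase that matures the spindle poles, was at 21.1, 22.3, 20.8 and 26.1 CPM in untreated CD34- and 33.4, 23.8, 32.3 and 26.8 CPM in untreated CD34+ cells. The CD34+ library of mouse 2 lay below the CD34- library of mouse 4, so these groups overlapped. The log2 fold change was 0.37 (SE 0.11, adjusted p = 0.0171), and it was not called without mouse 1 (0.26) or mouse 3 (0.27), without the untreated CD34+ library of either, when untreated CD34- mouse 3 was left out (0.33), or in a fit of the compared groups alone. The paralog Aurkb, the catalytic subunit of the chromosomal passenger complex, was at 11.3, 10.2, 11.2 and 12.1 CPM in CD34- and 20.5, 15.6, 18.6 and 20.6 CPM in CD34+ cells. Its groups lay well apart, with a log2 difference of 0.75 (SE 0.09, adjusted p = 4.4e-05). Of that complex, Birc5 (survivin) rose as well (0.55) and Cdca8 (borealin), at 0.36, did not pass the test (adjusted p = 0.0682).

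The small Cdk-binding subunits Cks1b and Cks2 had smaller differences. Cks1b was at 72.8, 69.5, 69.4 and 71.3 CPM in untreated CD34- and 85.3, 74.3, 85.5 and 74.3 CPM in untreated CD34+ cells, which did not overlap. The log2 difference of 0.17 (SE 0.07) missed the threshold (adjusted p = 0.0826), and passed it with mouse as a block (adjusted p = 0.0150). Cks2 was at 90.4, 84.5, 90.3 and 92.1 CPM and at 118.3, 94.97, 113.3 and 90.8 CPM. The CD34+ library of mouse 4 lay within the CD34- range, and the log2 fold change was 0.22 (SE 0.08, adjusted p = 0.0563, or 0.0203 with the block). A related gene model, Cks1brt, held only 38 to 89 counts per library, and Ccnb2-ps, named after Ccnb2, 5 to 25. Nek2, a centrosome kinase, had a log2 fold change of 0.52 (adjusted p = 0.0905), and G2e3 of 0.52 (adjusted p = 0.0138). With mouse as a block 45 members were called in place of 38, against 34% of tested genes in place of 32.1%, and the 7 gained were Cks1b, Cks2, Nek2, Anp32e, Cdca8, Ckap5 and Hmmr.

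Cdc25c, the phosphatase that frees Cdk1 from inhibition, was the exception in direction. It was at 56.7, 58.1, 60.5 and 52.3 CPM in untreated CD34- and 54, 50.3, 54.1 and 50.5 CPM in untreated CD34+ cells. It was lower in CD34+ cells of each of 4 mice, although the CD34- library of mouse 4 lay within the CD34+ range, and the log2 fold change was -0.12 (SE 0.04, adjusted p = 0.0391). An opposite-strand gene model, Gm3550, held 90.5% as many counts as Cdc25c, tracked it across libraries (r = 0.99 over 16 libraries that share their depth) and was itself lower (-0.17, adjusted p = 0.00546). No source used here states that counting used strand, so reads of the pair cannot be told apart. The call was lost in 8 of 20 runs that left out a library or a mouse, and with thinning, with library totals, with no low-count filter and in a fit of the compared groups alone.

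The checkpoint and anaphase-promoting complex genes gave 4 of 5 called higher in untreated cells. Cdca3, a mitotic entry factor, had a log2 fold change of 0.50, Bub1, a checkpoint kinase, 0.56, Ube2c, the ubiquitin-conjugating enzyme of the complex, 0.42 and Cdc20, its activator, 0.37. Ttk, the checkpoint kinase Mps1, was at 0.28 (adjusted p = 0.0987). Cdc20 overlaps Elovl1 on the opposite strand, which held 172% as many counts and was lower in CD34+ cells (-0.30, adjusted p = 0.0036), opposite to Cdc20.

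All 4 kinesins (Kif11, Kif20b, Kif23 and Kif2c) rose, by 0.59 to 0.67 on the log2 scale. Of 6 centromere and kinetochore genes 4 rose, and Cenpe (0.63, adjusted p = 0.065) and Cenpf (0.28, adjusted p = 0.155) did not pass. Ndc80, which grips microtubule ends at the kinetochore, was at 4.35, 4.79, 3.90 and 4.83 CPM in untreated CD34- and 9.33, 7.79, 8.84 and 7.81 CPM in untreated CD34+ cells. No CD34+ library came near the CD34- range, and the log2 fold change was 0.92 (SE 0.11, adjusted p = 2.6e-05). Its partner Nuf2 rose by 0.62.

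Of the 13 spindle and microtubule genes 9 rose in untreated cells. Nusap1, which bundles spindle microtubules, was at 17.6, 14.1, 14.4 and 17.7 CPM in CD34- and 34.0, 26.8, 34.6 and 29.0 CPM in CD34+ cells. The groups were far apart, with a log2 difference of 0.96 (SE 0.12, adjusted p = 3.13e-05). Oip5, on the strand opposite to Nusap1, held 16.9% as many counts (r = 0.858). It was itself called higher by edgeR, at 0.65 in untreated and 0.71 in N1-AcSpd cells. Oip5 is also among the other mitosis genes given below, so reads of this locus may enter both lists. Tpx2, the activator of Aurora A on the spindle, rose by 0.51, Psrc1 by 0.71 and Gtse1 by 0.63. Hmmr (0.43) and Ckap5 (0.33), a microtubule polymerase, did not pass the test.

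Of the 10 chromosome proteins 7 rose in untreated cells. Hmgb2, a DNA-bending chromatin protein, was at 625.6, 571.9, 569.9 and 589.9 CPM in untreated CD34- and 1100, 1012, 1108 and 1028 CPM in untreated CD34+ cells, a log2 difference of 0.85 (SE 0.10, adjusted p = 2.12e-05). Pimreg, which binds the clathrin assembly protein PICALM and is high in mitosis, was at 3.83, 3.45, 3.73 and 4.15 CPM and at 9.73, 6.31, 8.57 and 7.20 CPM, the largest log2 fold change of all members at 1.07 (SE 0.15, adjusted p = 0.000118). Top2a, the topoisomerase that untangles sister chromosomes, was at 29.1, 24.0, 24.8 and 28.9 CPM and at 57.3, 40.8, 51.0 and 40.9 CPM. None of these 3 genes had a CD34+ library within the CD34- range, and for Pimreg and Top2a mice 1 and 3 were again the high ones. Top2a rose by 0.83 (SE 0.14, adjusted p = 0.00036). Mki67, the proliferation marker that coats mitotic chromosomes, was at 20.7, 17.1, 18.7 and 19.5 CPM and at 36.8, 23.3, 32.2 and 24.6 CPM. It rose by 0.62 (SE 0.17, adjusted p = 0.0119), a call lost without mouse 1 (0.54) or without mouse 3 (0.56). Of the condensin subunits, Smc4 rose by 0.58 and Ncapd2 by 0.49.

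The next comparison asked the same of cells given N1-AcSpd. The difference between HFSCs and progenitors was again one of higher mitosis genes in HFSCs. edgeR called 47 of the 54 members higher and none lower, against 16.5% of tested genes called higher and 33.3% called in either direction. The median log2 fold change was 0.70, or 1.62-fold, against -0.0068 over all tested genes. In 43 members the 4 CD34+ libraries lay above the 4 CD34- libraries, as in 16.1% of tested genes, and 49 members were higher in CD34+ cells of each of 4 mice, against 27.67% of the 16258 tested genes above 0 in every library.

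**Figure D2:**
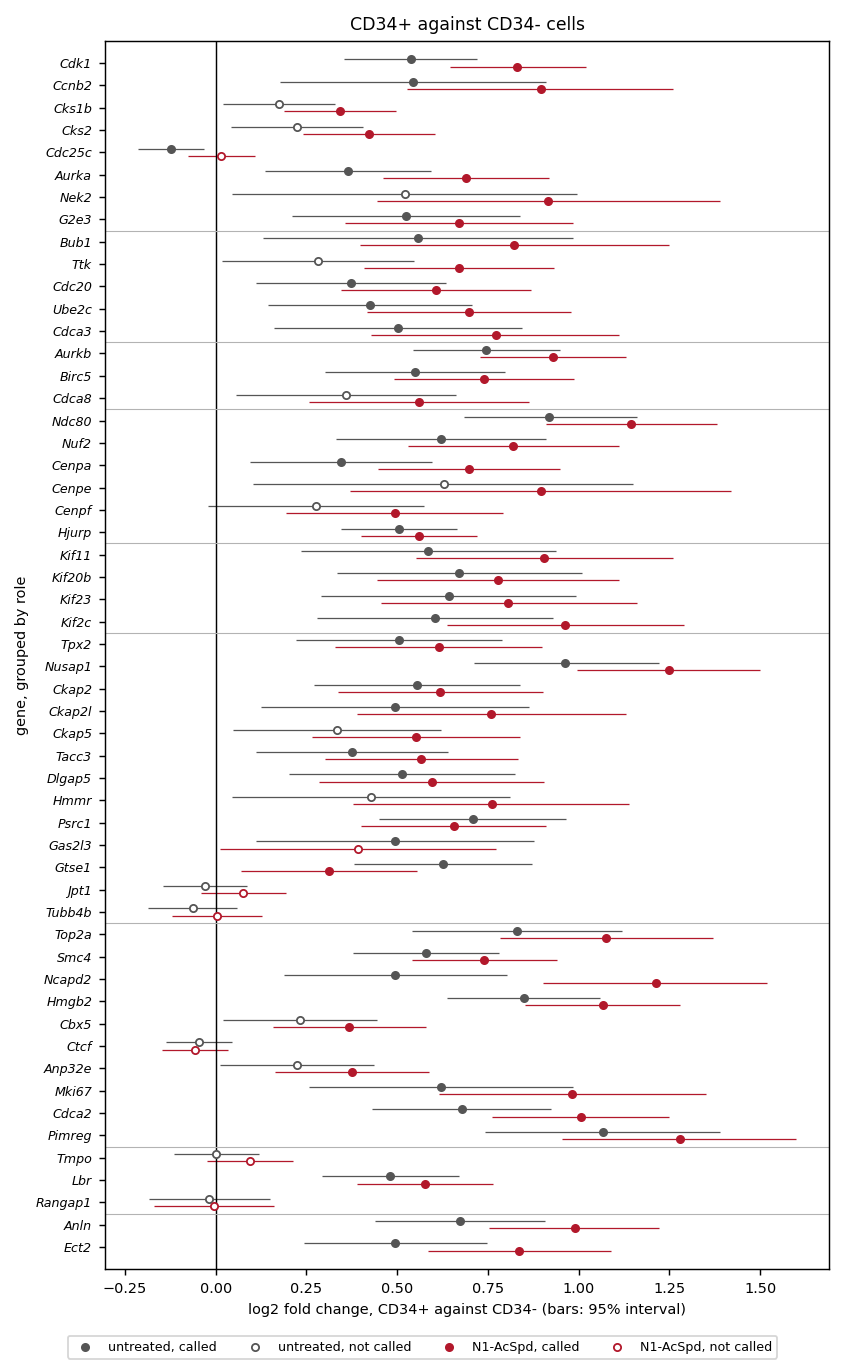
Points give the log2 fold change of CD34+ against CD34- cells for each member, with bars for the 95% interval, in untreated (grey) and N1-AcSpd cells (red). Filled points were called by edgeR (adjusted p under 0.05) and open points were not. Nearly all points lie right of 0, the red ones further right in 50 of 54 members, with Gtse1, Psrc1, Gas2l3 and Ctcf the other way.

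Cdk1 was at 30.4, 27.3, 30.9 and 31.3 CPM in N1-AcSpd CD34- and 59.5, 48.1, 53.5 and 52.3 CPM in N1-AcSpd CD34+ libraries. The groups were far apart, with a log2 difference of 0.83 (SE 0.09, adjusted p = 6.14e-06). Ccnb2 was at 24.4, 18.9, 24.98 and 20.8 CPM and at 48.0, 32.5, 47.5 and 37.9 CPM, a log2 difference of 0.90 (SE 0.17, adjusted p = 0.00105). Both CD34+ libraries of mice 1 and 3 again exceeded those of mice 2 and 4. Cks1b, at 75.4, 66.2, 77.2 and 72.4 CPM and at 100.5, 80.8, 97.6 and 90.03 CPM, now passed the test (0.34, SE 0.07, adjusted p = 0.00211). So did Cks2, at 88.6, 85.1, 89.9 and 88.6 CPM and at 126.7, 105.2, 129.5 and 110.6 CPM (0.42, SE 0.08, adjusted p = 0.00138), and in both genes the groups did not overlap.

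Aurka reached 41.0, 35.5, 35.1 and 35.4 CPM in N1-AcSpd CD34+ libraries against 21.8, 21.1, 24.7 and 23.5 CPM in N1-AcSpd CD34- libraries. The overlap seen in untreated cells was absent, and the log2 fold change was 0.69 (SE 0.11, adjusted p = 0.0002). Aurkb was at 10.2, 10.47, 12.8 and 11.6 CPM and at 23.1, 20.5, 21.97 and 20.4 CPM (0.93, SE 0.09, adjusted p = 5.14e-06). Mki67 was at 17.5, 11.5, 18.3 and 13.8 CPM in CD34- and 35.4, 26.9, 32.2 and 26.1 CPM in CD34+ cells, a log2 difference of 0.98 (SE 0.17, adjusted p = 0.00049). In CD34- cells its levels in mice 2 and 4 were the lowest of all 16 libraries. Top2a was at 26.5, 21.9, 27.3 and 20.9 CPM and at 60.0, 45.8, 53.1 and 44.5 CPM (1.07, SE 0.14, adjusted p = 3.59e-05).

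The 4 largest differences under N1-AcSpd were those of Pimreg, Nusap1, Ncapd2 and Ndc80. Pimreg was at 3.88, 3.12, 3.96 and 3.04 CPM in CD34- and 10.03, 6.95, 9.45 and 7.52 CPM in CD34+ cells (1.28, SE 0.15, adjusted p = 2e-05). Nusap1 was at 15.2, 13.2, 15.9 and 17.5 CPM and at 39.7, 31.3, 40.1 and 35.9 CPM (1.25, SE 0.12, adjusted p = 2.93e-06). All 4 genes had well separated groups. Ncapd2, a regulatory subunit of condensin I, was at 3.96, 3.51, 3.35 and 3.77 CPM and at 10.1, 7.34, 8.04 and 8.34 CPM (1.21, SE 0.14, adjusted p = 2.12e-05), and Ndc80 at 4.54, 3.34, 4.72 and 3.98 CPM and at 10.1, 8.71, 8.47 and 9.40 CPM (1.15, SE 0.11, adjusted p = 3.28e-06). Hmgb2 was at 588.8, 496.7, 677.8 and 514.9 CPM and at 1296, 1111, 1347 and 1016 CPM (1.07, SE 0.10, adjusted p = 2.73e-06).

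By role, all members were called higher under N1-AcSpd in the checkpoint (5 of 5), passenger complex (3 of 3), kinetochore (6 of 6), kinesin (4 of 4) and cytokinesis (2 of 2) groups. In the last, Anln (anillin) rose by 0.99 and Ect2, the exchange factor that positions the contractile ring, by 0.84, after 0.67 and 0.49 in untreated cells, where both also passed. Of the kinases and regulators 7 of 8 passed, of the spindle genes 10 of 13, and of the chromosome proteins 9 of 10. In the nuclear envelope group only Lbr, the lamin B receptor, rose, by 0.48 untreated and 0.58 treated. Dnah14, on the strand opposite to Lbr, held 93.1% as many counts with nearly the same pattern (r = 0.999), so those reads cannot be assigned.

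Across both conditions, 36 members were called higher in both, 11 only under N1-AcSpd, Gas2l3 higher only in untreated cells (0.49, adjusted p = 0.0482, against 0.39, adjusted p = 0.108), Cdc25c lower only in untreated cells, and 5 in neither. The 11 were Anp32e, Cbx5, Cdca8, Cenpe, Cenpf, Ckap5, Cks1b, Cks2, Hmmr, Nek2 and Ttk, and all 11 were above 0 in untreated cells too. With mouse as a block only Cbx5, Cenpe, Cenpf and Ttk of these were not called in untreated cells. Whether the difference changed between conditions is tested by the interaction given below.

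The 5 members called in neither condition stood apart by their flat levels. Jpt1, a microtubule-associated protein, was at 116.7, 115.0, 112.5 and 114.6 CPM in untreated CD34- and 117.0, 107.3, 119.9 and 105.5 CPM in untreated CD34+ cells (95% interval of the log2 fold change -0.15 to 0.087). Tubb4b, a beta-tubulin, was at 214.2, 213.8, 201.4 and 222.8 CPM and at 216.5, 189.8, 215.7 and 193.5 CPM (-0.19 to 0.060). Ctcf, the insulator protein, was at 121.8, 124.5, 115.9 and 117.9 CPM and at 118.3, 122.6, 108.1 and 115.8 CPM (-0.14 to 0.044). In all 3 genes the groups overlapped. Rangap1, which activates the GTPase Ran, was at 63.7, 63.2, 58.9 and 60.9 CPM and at 62.2, 57.0, 69.6 and 55.0 CPM (-0.18 to 0.15). Tmpo, a nuclear lamina protein, averaged 65.3 ± 1.71 and 65.3 ± 4.45 CPM (SD, n = 4). All 5 upper bounds lie under the median of the members.

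Under N1-AcSpd the same genes stayed near 0. Tubb4b was at 211.9, 242.5, 222.4 and 241.6 CPM in CD34- and 244.0, 221.9, 234.6 and 220.7 CPM in CD34+ cells (95% interval -0.12 to 0.13), and Ctcf at 114.1, 123.4, 117.2 and 117.6 CPM and at 114.5, 117.3, 107.6 and 114.3 CPM (-0.15 to 0.033). Rangap1 was at 64.6, 60.5, 62.7 and 57.6 CPM and at 66.3, 62.3, 63.1 and 52.9 CPM (-0.17 to 0.16). The groups overlapped in each. Cdc25c was at 53.7, 55.2, 55.1 and 53.2 CPM and at 56.4, 53.9, 55.0 and 54.3 CPM, with an interval of -0.076 to 0.11. With library totals in place of TMM, which moved the median of all genes to 0.137 in untreated and 0.109 in N1-AcSpd cells, Jpt1, Tmpo and Cdc25c were called higher under N1-AcSpd. Opposite-strand genes again share these loci: Fam166a held 52.2% as many counts as Tubb4b, and Agrp and the model Gm5915 held 279% and 84.3% as many as Ctcf. The models Tubb4b-ps1 and Tubb4b-ps2 held 0 to 720 and 0 to 264 counts per library, where Tubb4b held 3346 to 6832. Their bearing on the Tubb4b values was not tested.

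The HFSC libraries differed among themselves, and they did so by mouse. In untreated CD34+ cells the libraries of mice 1 and 3 held the 2 highest values for 47 of 54 members (87.0%), an order that 17.1% of all 19049 tested genes showed. In N1-AcSpd CD34+ cells this held for 38 of 54 (70.4%, against 17.3% of tested genes), and in N1-AcSpd CD34- cells for 30 of 54 (55.6%, against 18.4%). In untreated CD34- cells it held for 10 of 54 (18.5%, against 18.9%). The animal names in the labels begin with X for mice 1 and 3 and with Y for mice 2 and 4. What the letters stand for is not stated, and the order was noticed in the data. Whether the naming bears on this order was not tested. Expressed as the median over members of log2 CPM from each gene's own mean, the untreated CD34+ libraries of mice 1 and 3 stood at 0.375 and 0.373, and those of mice 2 and 4 at -0.013 and 0.086. All 4 untreated CD34- libraries lay below these, between -0.384 and -0.193.

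**Figure D3:**
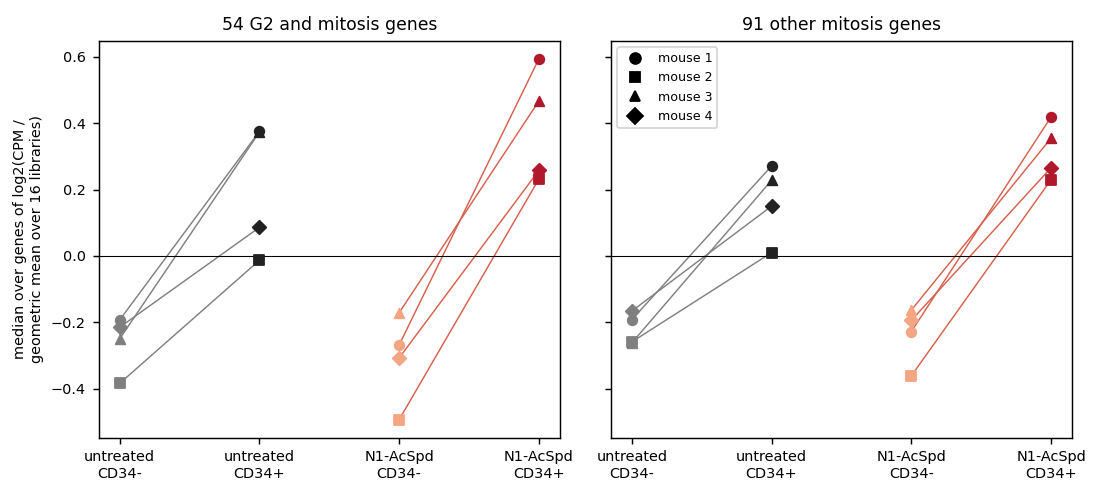
Each point is 1 library, at the median over genes of log2 CPM from the gene's geometric mean over 16 libraries, for the 54 members (left) and 91 other mitosis genes (right). Lines join the 2 cell types of a mouse. Every line rises from CD34- to CD34+, and the members' CD34+ libraries of mice 1 and 3 lie above those of mice 2 and 4 in both conditions.

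The count of members called in untreated cells moved most with those animals. It was 22 without mouse 1 and 17 without mouse 3, against 35 without mouse 2 and 30 without mouse 4. Of all tested genes, 4667 and 4767 were called without mice 1 and 3, and 4710 and 4506 without mice 2 and 4, against 6123 with all 4 mice. The medians moved little, from 0.44 to 0.60 over all 20 runs that left out a library or a mouse. Under N1-AcSpd between 40 and 47 members were called in the same 20 runs, and between 4927 and 6369 of all tested genes.

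Members also moved together within groups. Over the 16 libraries, deviations from the group means correlated between members with a median r of 0.612 over 1431 pairs, of which 92.3% were above 0. The points share libraries, mice and scaling, so this is a description of these libraries. Tpx2 followed the other members most closely (median r 0.767). Gtse1 (-0.445) and Ctcf (-0.44) ran against them.

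The treatment comparisons asked what N1-AcSpd changed within each cell type. In CD34- progenitors edgeR called none of the 54 members, against 0.614% of tested genes, and 5 had an unadjusted p under 0.05, against 13.6%. The median log2 fold change was -0.046, with 19 members above 0. In 2 members all treated libraries lay above all untreated ones, as in 4.91% of tested genes. In 3 members they lay below, a direction for which the share of tested genes was not determined. DESeq2, run as an alternative, called 1 member, against 2.93% of tested genes, and blocking on mouse gave 1 as well, against 1.84%. In CD34+ HFSCs edgeR again called none, against 0.325% of tested genes, while 11 had an unadjusted p under 0.05, against 13.2%. DESeq2 called 3 members there, against 2.22% of tested genes. The median was 0.16, with 50 members above 0, and 28 were higher under treatment in each of 4 mice, as were 12.98% of those 16258 genes. With mouse as a block 20 members had an unadjusted p under 0.05, against 15.6% of tested genes. In 3 members the treated libraries lay above all untreated ones, as in 3.38% of tested genes. The CD34+ median was 0.086 without the untreated CD34+ library of mouse 2.

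**Figure D4:**
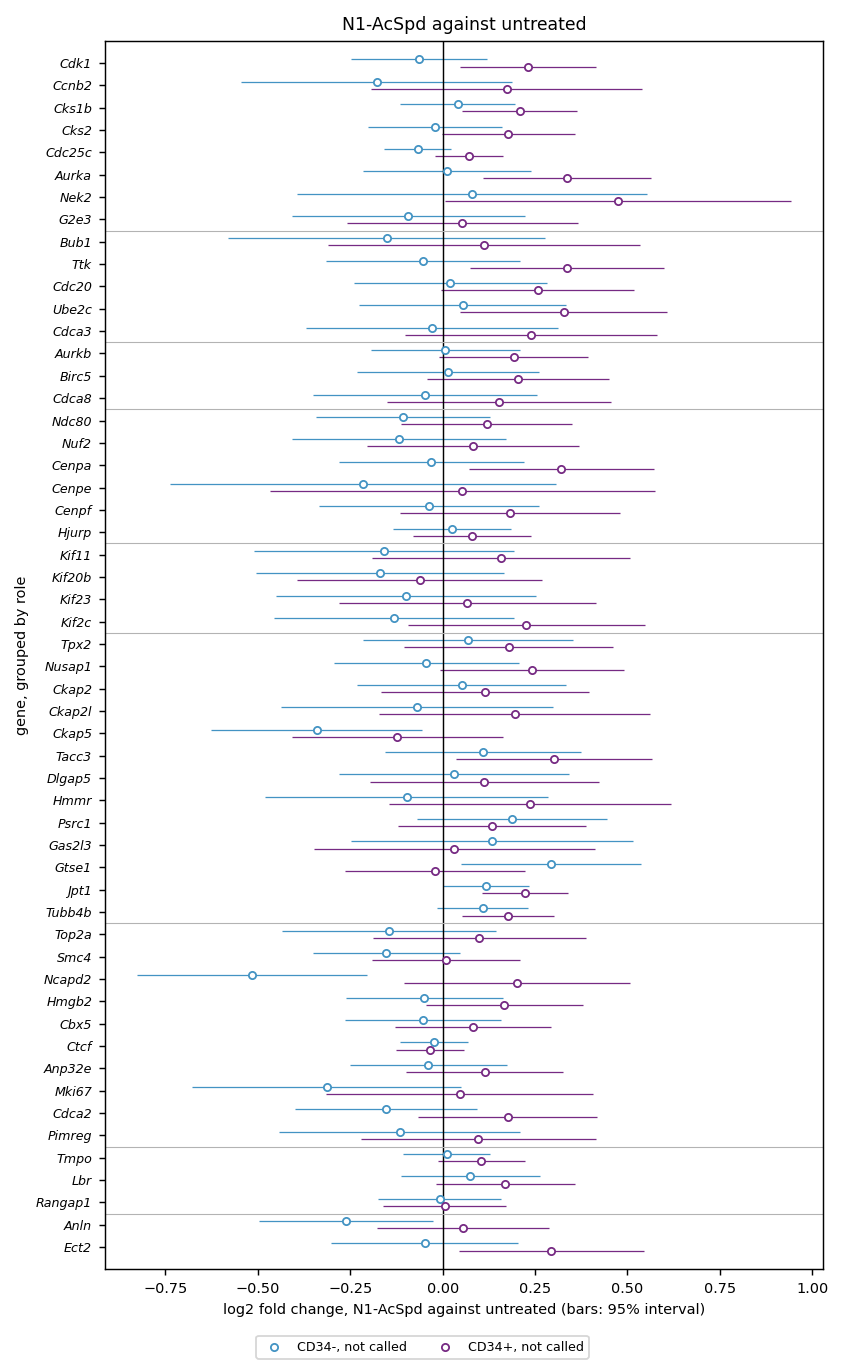
Points give the log2 fold change of N1-AcSpd against untreated cells for each member in CD34- (blue) and CD34+ cells (purple), with 95% intervals. All points are open because edgeR called none. In CD34+ cells 50 of 54 points lie right of 0, and in CD34- cells 19 do.

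In progenitors, Ncapd2 had the smallest p. It was at 5.59, 5.24, 5.85 and 4.20 CPM in untreated and at 3.96, 3.51, 3.35 and 3.77 CPM in N1-AcSpd CD34- libraries. Every treated library lay below every untreated one, with a log2 difference of -0.52 (SE 0.14, adjusted p = 0.125, edgeR). With mouse as a block its adjusted p was 0.0448, and in DESeq2 0.04999, so the call depends on the fit. Gtse1, a p53 regulator and microtubule-tip protein, was at 5.38, 6.13, 6.41 and 6.00 CPM untreated and 6.44, 8.70, 6.58 and 7.59 CPM treated. Its treated libraries all lay above the untreated ones (0.29, SE 0.11, adjusted p = 0.273). Ckap5 was at 6.84, 7.28, 6.63 and 7.04 CPM and at 6.32, 5.01, 6.35 and 4.27 CPM, where mice 2 and 4 were the low ones (-0.34, SE 0.13, adjusted p = 0.276).

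In HFSCs, Jpt1 had the smallest p, with N1-AcSpd CD34+ libraries at 136.4, 127.3, 142.1 and 119.0 CPM against the untreated 117.0, 107.3, 119.9 and 105.5 CPM. Each mouse was higher, although untreated mouse 3 lay above treated mouse 4 (0.22, SE 0.05, adjusted p = 0.104). Aurka was higher in every treated than in any untreated CD34+ library (0.34, SE 0.11, adjusted p = 0.207). Tubb4b was too, by 0.18 (SE 0.06, adjusted p = 0.218). DESeq2 called these 3 (adjusted p = 0.00278 for Jpt1, 0.0393 for Aurka and 0.0366 for Tubb4b). Jpt1 also had a log2 fold change of 0.12 in CD34- cells with no overlap of groups (adjusted p = 0.364), and Tubb4b of 0.11 (adjusted p = 0.437).

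The interaction asked whether the difference between HFSCs and progenitors changed with N1-AcSpd. edgeR called none of the members, against 0% of tested genes, with 5 under 0.05 before adjustment, against 4.19%, and none were called by DESeq2, against 0.378%. With mouse as a block 17 members were under 0.05 before adjustment, against 5.15% of tested genes, and again none passed after it. The median over members was 0.21 (all genes -0.0077), and 22 members were above 0 in each of 4 mice, against 7.627% of those 16258 genes. The difference between conditions was not uniform over animals. In mice 1, 2 and 4 the cell type effect was larger under N1-AcSpd in 50, 47 and 48 of 54 members, with medians of 0.23, 0.30 and 0.33. In mouse 3 it was larger in 25 members, with a median of -0.026. In the progenitors of mouse 3 40 of 54 members were above 0 under treatment, against 19, 21 and 11 in mice 1, 2 and 4.

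**Figure D5:**
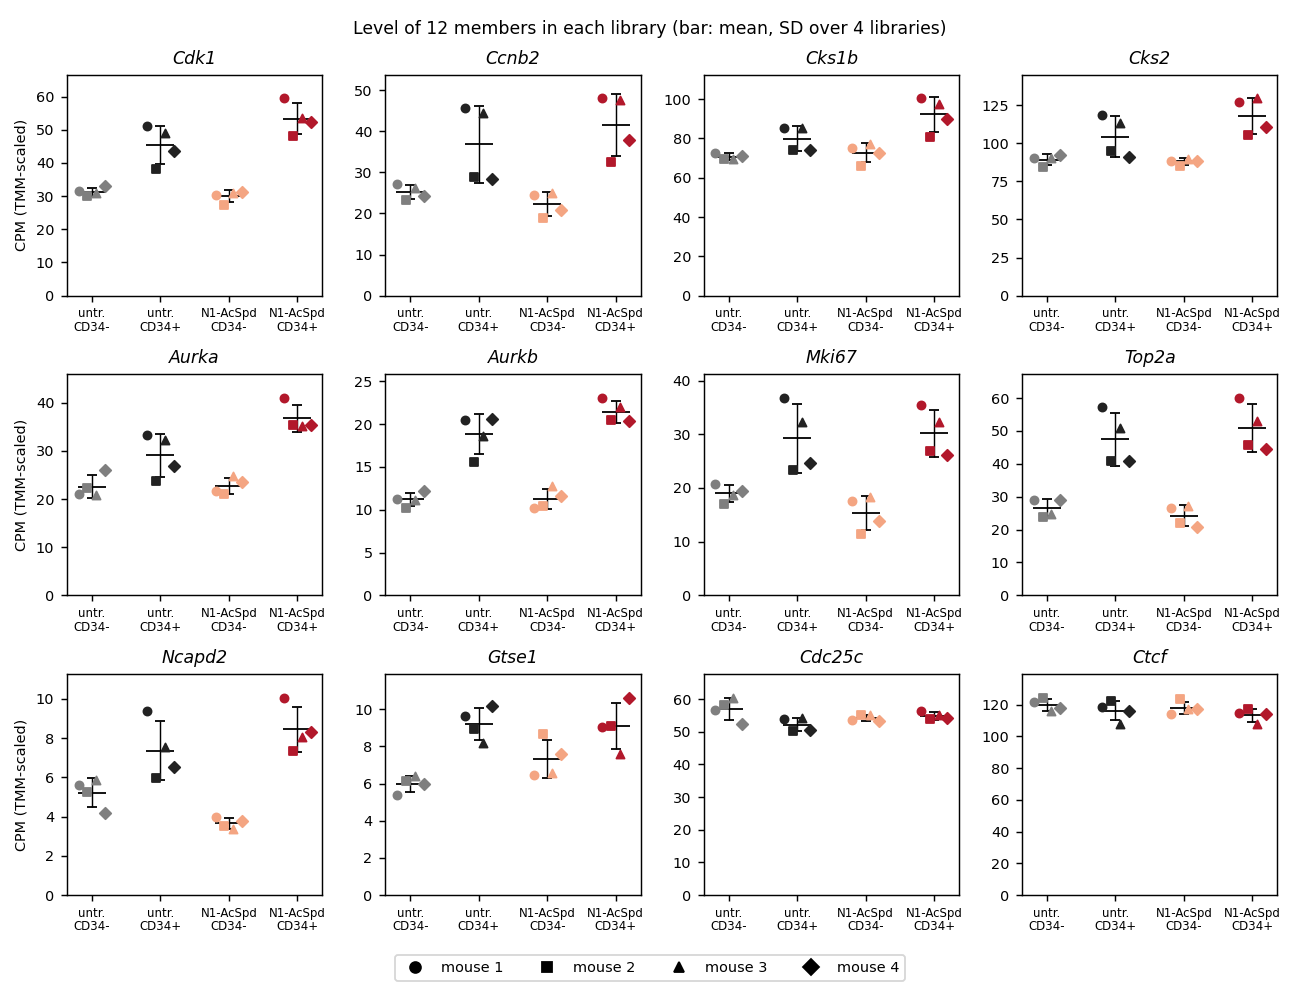
CPM in each library for 12 members, with symbols for mice 1 to 4 and black bars for the mean and SD over 4 libraries of a group. All axes start at 0. Cdk1, Aurkb and Top2a separate CD34+ from CD34- cells in both conditions, Ncapd2 is lowest in N1-AcSpd CD34- cells (3.65 ± 0.273 CPM), and Cdc25c and Ctcf differ little between groups beside these.

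Ncapd2 had the smallest interaction p (0.72, SE 0.20, adjusted p = 1), with mouse values of 0.598, 0.872, 0.898 and 0.507. Cdk1 followed (0.29, SE 0.12), then Cdc25c (0.14, SE 0.06), and neither passed after adjustment (adjusted p = 1 for both). All 4 mice were above 0 for each of these 3 genes. Gtse1 was the other way in 4 of 4 mice, at -0.31 (SE 0.16, adjusted p = 1), its difference between cell types being 0.63 untreated and 0.31 treated.

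The 91 other genes of mitosis, from a list of kinetochore, checkpoint, condensin, kinase, spindle and transcription factor genes, were mostly higher in CD34+ cells too. In untreated cells edgeR called 57 higher and 2 lower, with a median of 0.40, and under N1-AcSpd 71 higher and 2 lower, with a median of 0.57. Of all tested genes 16.1% and 16.5% were called higher and 32.1% and 33.3% in either direction, with medians of 0.022 and -0.0068. For treatment and interaction edgeR called none, against 0.614% (CD34-), 0.325% (CD34+) and 0% of tested genes. Before adjustment 7 (CD34-), 21 (CD34+) and 6 (interaction) were under 0.05, against 13.6%, 13.2% and 4.19%. DESeq2 called 1 in CD34- and 3 in CD34+ cells, against 2.93% and 2.22%. The shares called higher also apply to the counts by role. Of 30 further kinetochore genes 20 and 25 rose in untreated and N1-AcSpd cells, of 17 checkpoint, anaphase-promoting complex and cohesin genes 8 and 13, of 6 condensin subunits 6 and 5, of 11 kinases and cyclins 9 and 10, of 19 motor, spindle and cytokinesis genes 11 and 14, and of 8 transcription factors 3 and 4.

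Ccnb1, the main mitotic cyclin, rose by 0.39 (adjusted p = 0.0475) in untreated and 0.69 (adjusted p = 0.00182) in N1-AcSpd cells. The untreated call was lost in 13 of 20 runs that left out a library or a mouse. Ccna2 (cyclin A) rose by 0.31 and 0.41, the former not called without mouse 1, 3 or 4, and Plk1 (polo-like kinase) had 0.40 (adjusted p = 0.0608) and 0.63 (adjusted p = 0.00519). Foxm1, a transcription factor of mitosis genes, rose by 0.58 (adjusted p = 0.0497) and 0.93 (adjusted p = 0.00366), and its untreated call was lost in 15 of the 20 runs and its N1-AcSpd call without mouse 3 (0.85). Pbk (0.81 untreated), Arhgef39 (0.88 and 1.33) and Fam83d (1.22 under N1-AcSpd) were the highest among those with a mean count of at least 50, the untreated call of Arhgef39 being lost without mouse 1 (0.68). The lowest were Shcbp1, a partner of the centralspindlin complex (-0.76 and -0.69), and Zwint, which links kinetochore complexes (-0.36 and -0.31), each lower in CD34+ cells in both conditions.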

How the data were processed

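RNA of 16 sorted samples, 4 mice in each of 4 groups, was sequenced from the 3′ end with UMIs after all samples had been pooled into 1 tube, with barcodes added at cDNA synthesis. Per the study's methods, the authors demultiplexed reads with FLEXBAR, mapped the second read with Kallisto to mm10, assigned reads to genes with BEDTools and counted UMIs in R, and the submitters' processing notes name FastQC 0.11.7 and kallisto 0.45.0. The annotation release and the use of strand are not given in the sources used here. The deposited values are raw counts of UMIs per gene, and 156050 empty cells were read as 0. UMIs remove PCR copies, but a 3′ count can be shared by genes that overlap at that end.

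The test was the quasi-likelihood test of edgeR 4.0.16 under R 4.3.3 (TMM scaling, all 16 libraries, 1 mean per group) over 19049 genes whose counts averaged 5 or more, and p-values were Benjamini-Hochberg adjusted over these genes. Printed CPM are TMM-scaled, log2 fold changes come from the fit, and ± gives the SD. In 5 comparisons, cell types were compared within each condition, conditions within each cell type, and the interaction was tested. DESeq2 (run here as version 1.42.0; the study's version is not given in the sources used here), other scalings and filters, thinning, mouse as a block and leaving out libraries or mice were alternatives. Replicate numbers mark the same mouse in the labels, so they pair the samples. Deviations of same-mouse libraries from their group means had a mean r of 0.0344 (-0.118 to 0.162 over 24 pairs). Libraries of different mice and groups had -0.0114 (-0.14 to 0.185 over 72 pairs). These r span well-counted genes of the whole series, so they do not show that pairing is unimportant for the members. Blocking on mouse raised the members called in untreated cells from 38 to 45. It raised those with an unadjusted interaction p under 0.05 from 5 to 17. Printed tests of single genes ignore the pairing unless the block is named. The code was tested on simulated data.

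The members and the list of other mitosis genes were chosen with earlier results of these data known. Named members are Cdk1, Ccnb2, Cks1b, Cks2, Aurka, Aurkb, Mki67 and Top2a, the 4 at each end of a cell type difference, the 3 with the smallest p in each other comparison, and members called in neither condition. Named other genes are Ccnb1, Ccna2, Plk1, Foxm1 and the 2 at each end. Remaining genes were named after their values were seen. Gene overlaps came from GENCODE vM21 (GRCm38).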

Additional observations from a re-analysis of the deposited data

Results flagged for a closer look

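In 84 groups of 4 libraries examined for a library far from the rest, 1 stood out, where chance gives about 1 in 20. Aurka in the N1-AcSpd CD34+ library of mouse 1 was at 41.0 CPM, and the other 3 libraries lay between 35.1 and 35.5 CPM. Without that library the difference between cell types under N1-AcSpd was still called.

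For 2 genes every mouse was lower under N1-AcSpd in CD34- cells and higher in CD34+ cells. Of the 16258 tested genes above 0 in every library, 13.34% were lower in all 4 mice in CD34- cells. In CD34+ cells 12.98% were higher in all 4. The share of tested genes with both was not determined, so the 2 genes cannot be set against it. For Ncapd2 the log2 differences of mice 1 to 4 were -0.497, -0.576, -0.805 and -0.153 in CD34- and 0.100, 0.296, 0.093 and 0.354 in CD34+ cells, and the interaction was 0.72 (adjusted p = 1, edgeR). For Ccnb2 they were -0.152, -0.305, -0.071 and -0.212 in CD34- and 0.077, 0.175, 0.099 and 0.414 in CD34+ cells, and the interaction was 0.35 (adjusted p = 1, edgeR). Neither interaction passed the test over all genes.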

How the results depend on the processing

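No value changed direction among those given a call. Of 38 members called in untreated cells 22 had an adjusted p under 0.01, and leaving out libraries or mice gave 17 to 41 (22 without mouse 1, 17 without mouse 3), with the cause not tested beyond the smaller number of samples. Of all 19049 tested genes 4003 had an adjusted p under 0.01 there, and the runs that left out libraries or mice called 4506 to 6211 genes. Of the other mitosis genes 34 passed in untreated cells with an absolute log2 fold change over 0.5 (40 to 62 without that limit when libraries or mice were left out). With the same limit 2913 of 19049 tested genes passed. In CD34- cells the treatment gave 1 member (Ncapd2) with mouse as a replicate block and 1 in DESeq2, and 1 and 1 of the other genes. In CD34+ cells DESeq2 called 3 members and 3 other genes, and the block called 1 other gene, against 152 of 19049 tested genes. The median over members for treatment in CD34+ cells ran from 0.086 to 0.21 when libraries or mice were left out. The cause of these changes was not tested. The paired analysis, with mouse as a block, called 45 members in untreated and 47 in N1-AcSpd cells, against 38 and 47 without it. With the block 6484 and 6647 of 19049 tested genes were called. A fit of the compared groups alone called 30 members in untreated cells, and 5450 of the 18842 genes tested in it. Leaving out the 7 members with an opposite-strand partner of at least 20% of their counts left 33 and 43 called. That alternative was chosen after seeing the data, and the shares of all tested genes stay at 32.1% and 33.3%. Among values of single genes under alternatives, 85 lost and 23 gained a call and 1719 stayed on their side of the threshold. With 4 mice, differences within the intervals of the uncalled members were not detectable at this depth and number.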
